A study of Mus musculus with 63 samples.

Results

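Diabetic ob/ob mice were compared with adult mice of the outbred ICR strain, labelled WT, by RNA sequencing of their sorted pancreatic β cells. The T2D group holds 7 libraries, taken as every sample whose title ends in T2D, and the ICR adults hold 21, taken as those ending in WT, so that 28 of the 63 libraries of the series enter the comparison. The labels give each library its own age and weight; 1 ICR adult and 1 T2D library share an animal number with different dates and strains, and were taken as separate mice. A further 9 libraries from ob/+ mice (T2H) are set beside them. The T2D mice were of a BTBR and mixed background (labelled BTBR/mix), carried Cherry/+, Ob/Ob and 1 (5 mice) or 2 (2 mice) copies of Ins2-Cre, and were 58 to 78 days old. Their weight was 37.24 to 60.95 g, and their blood glucose was 408 mg/dl, 534 mg/dl and above 600 mg/dl in 5 mice. The T2H mice were BTBR with Cherry/+, Ob/+ and 1 (7 mice) or 2 (2 mice) copies of Ins2-Cre, aged 53 to 179 days, with 33.41 to 60.4 g of weight and 103 to 271 mg/dl of glucose. The ICR adults carried Cherry/+ and 1 copy of Ins2-Cre and no Ob allele, were 84 to 364 days old, weighed 19.46 to 62.39 g and had 103 to 190 mg/dl of glucose. Every mouse thus carried the Cre driver under the *Ins2* promoter, and the cells were sorted by mCherry, so that a cell enters a library by its Cre history and not by its present insulin. Strain, obesity, blood glucose and age differ together between T2D and ICR adults, with no age shared and with weights that overlap, and their parts in the differences cannot be told apart. Females made up 4 of 7 T2D and 11 of 21 ICR adult mice, and RNA came from Qiagen columns in 3 of 7 and 17 of 21 libraries and from TRIzol in the others.

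The β cell secretes insulin when glucose enters through the transporter GLUT2, is broken down to ATP and closes potassium channels, which lets calcium in. Mice with 2 ob alleles make no leptin, the fat hormone that restrains feeding, and on the BTBR background their β cells fail to keep up with the demand for insulin. In *Lep* itself, the gene of leptin, 0 counts were seen in the 7 T2D libraries, 3 counts in the 9 T2H and 5 counts in the 21 ICR adults, so β cell RNA gives no check of the genotype. Levels below are CPM, counts set on 1 common library size after TMM scaling. Folds are log2 values, T2D over ICR adults unless another pair is named, ± their standard error (SE), and a gene is called changed, rose or fell where its p, adjusted over all 16092 tested genes, lies below 0.05 (edgeR quasi-likelihood test).

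Of the 16092 genes, 6437 were called between T2D and ICR adults (40%), 3521 higher (21.9%) and 2916 lower (18.1%), and 2791 of them at least 2-fold (17.3%). All T2D libraries lay above all ICR adult libraries in 328 genes (2.04%) and below all of them in 231 (1.44%). The median fold of all tested genes was -0.0057. The 28 libraries held 28402805 to 73839270 expected counts. With Qiagen libraries alone (3 T2D, 17 ICR adults) 3140 genes were called, 1832 higher and 1308 lower. The count was 3398 with TRIzol libraries alone (4 and 4), 1852 higher and 1546 lower, and 4379 with the ICR adults of at most 124 days. The TRIzol ICR adults were all female and 136 to 289 days old. The TRIzol T2D mice were 58 to 71 days old, and T2D 4 and T2D 6 among them were male, so sex and age differ with group in that fit. A term for myeloid markers gave 4722 calls, 2472 higher and 2250 lower. Counts of list members in T2D over ICR adults below stand beside the 21.9% and 18.1% of all genes, and those from other fits beside these smaller totals. Counts in T2D over T2H stand beside 9.75% higher and 8.50% lower, and those in T2H over ICR adults beside 3.37% and 1.83%.

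The 10 defining β cell markers held 17.2 to 53.9% of counts in T2D libraries, against 20.5 to 59.0% in ICR adults, and overlapped between the groups. Most of that share is insulin RNA (*Ins2* median 211070 CPM and *Ins1* median 49350 CPM in T2D), so it says little about the other markers. Of the 10 markers 6 were called lower and 1 higher, beside 18.1% and 21.9% of all genes, with a median fold of -0.74. RNA of other cells was present too. All 20 myeloid markers (genes of macrophages and their kin) were called higher in T2D, with a share of 0.031 to 0.305% of counts (median 0.0876%), against 0.00383 to 0.0492% (median 0.0175%) in ICR adults. Of the 7 T2D libraries only T2D 1, at 0.031%, lay within the ICR adult range, and a fit with T2D 1 as the only T2D library gave 3359 calls, an alternative added after the data were seen. That library also had the lowest glucose of the T2D mice (408 mg/dl) and the most counts (73839270) and stood farthest from the others, and the fit has 1 T2D library in place of 7, so it does not isolate the myeloid share. T2H 1 came next in counts (65518931) among the T2D, T2H and ICR adult libraries. The labels give T2D 1 and T2H 1 the S numbers 17 and 18, which T2D 3 and T2D 4 also carry. Whether T2D 1 and T2H 1 were sequenced apart from the others is not known here, and its part was not tested. Acinar markers, genes of digestive enzymes, held 0.00343 to 40.02% in T2D libraries (40.02% in T2D 3, at most 7.67% in the other 6) and 0.0272 to 32.6% in ICR adults, and 1 of 20 was called. Alpha cell markers held 0.139 to 0.67% and 0.0374 to 0.635%, and 4 of 8 were called higher, glucagon (*Gcg*, 1.11 ± 0.53) not among them. Fewer cells of a type and less RNA per cell cannot be told apart in such bulk samples.

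**Figure D1:**
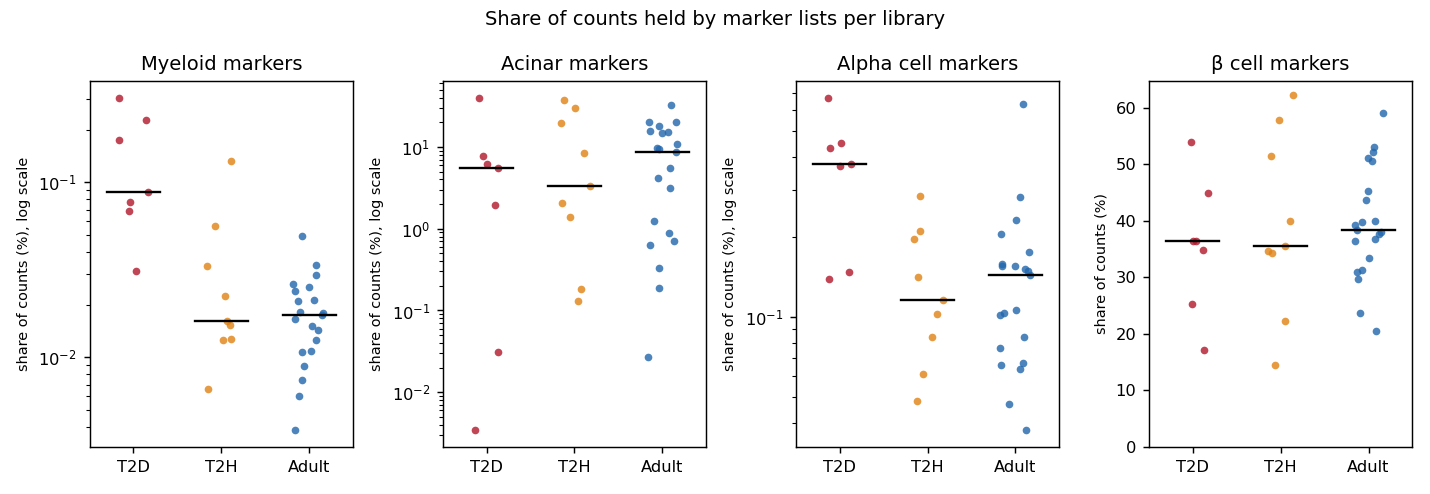
Share of counts (y axis, percent) held by the marker lists of myeloid, acinar, alpha and β cells, 1 point for each library and a bar at the median of T2D (n = 7), T2H (n = 9) and ICR adult (n = 21) libraries; the first 3 axes are logarithmic. Myeloid shares of 6 of 7 T2D libraries lie above every ICR adult, while the β cell shares of T2D (17.2 to 53.9%) and ICR adults (20.5 to 59.0%) overlap.

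Where the mean of the higher group reached 10 CPM, the largest rise was that of *Slc5a10* (chr11:61672782-61720817, GRCm38.p6, as are all positions below), a sodium-coupled sugar transporter known from the kidney. It stood at 29.4 to 217 CPM (median 97.1) in T2D libraries, against 0.109 to 0.971 CPM (median 0.379) in ICR adults. No T2D library overlapped an ICR adult, and the fold was 8.60 ± 0.60 (adjusted p = 1.91e-16, edgeR). *Cck* (chr9:121489824-121495694), which encodes the gut hormone cholecystokinin, had 19.1 to 124 CPM (median 38.9) in T2D libraries, against 0 to 3.54 CPM (median 0.0898) in ICR adults. These ranges did not overlap either, and the fold was 7.62 ± 0.72 (adjusted p = 2.11e-12, edgeR). *Aldh1a3* (chr7:66390892-66427477), an enzyme that makes retinoic acid and a known marker of failing β cells, had 99.97 to 395 CPM (median 198) in T2D libraries, against 0.126 to 42.3 CPM (median 1.46) in ICR adults. Again the groups stood apart, with a fold of 5.73 ± 0.76 (adjusted p = 2.19e-08, edgeR), and the highest T2H library, T2H 9, reached 146 CPM.

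Other large rises were *Pfkfb3*, an enzyme whose product speeds up glycolysis, at 13.2 to 26.3 CPM (median 17.8) in T2D libraries, against 0.0185 to 2.13 CPM (median 0.426) in ICR adults, without overlap. *Sorcs2*, a sortilin-family receptor, stood at 5.31 ± 0.59, *Tmem252* at 6.15 ± 0.77 and *Tm4sf20* at 5.94 ± 0.82, all without overlap. The milk protein gene *Csn3* (5.23 ± 0.90) and the neuropeptide gene *Cartpt* (5.29 ± 0.80) rose with ranges that overlap. The highest ICR adult values were 109 CPM of *Csn3* and 4.29 CPM of *Cartpt*. For *Cartpt*, T2D 1, T2D 2 and T2D 3 lay below that value, at 0.858 to 3.52 CPM. T2D 4 to T2D 7 had 19.7 to 43.9 CPM of it. *Dio1*, a deiodinase that activates thyroid hormone, differed from these genes. It had 1.96 to 81.9 CPM (median 13.7) in T2D libraries, 0.802 to 115 CPM (median 6.38) in T2H and 0 to 1.52 CPM (median 0.439) in ICR adults, with a fold of 5.76 ± 0.50 (adjusted p = 1.08e-13, edgeR) over ICR adults and of 0.53 ± 0.58 (adjusted p = 0.571, edgeR) over T2H. The T2H libraries alone stood 5.23 ± 0.48 (adjusted p = 1.44e-11, edgeR) above the ICR adults on the log2 scale.

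Among abundant genes (mean of 100 CPM or more in T2D or in ICR adults, whichever was higher), *Serpina7*, which encodes thyroxine-binding globulin, had 212 to 617 CPM (median 347) in T2D libraries, against 4.54 to 111 CPM (median 19.7) in ICR adults, without overlap (log2 fold 4.16 ± 0.40). *Gucy2c*, the gut receptor of guanylin peptides, rose by 3.77 ± 0.38, the zinc transporter gene *Slc39a11* by 3.08 ± 0.25 and *Mfge8*, a secreted protein that binds dying cells, by 3.75 ± 0.41, each without overlap. Macrophages also make *Mfge8*. Its fold was 2.83 to 4.34 over all alternatives, a term for myeloid markers among them. The part of the higher myeloid share in its rise was not tested further. The organic anion transporter gene *Slco1a6* had 7.84 to 178 CPM (median 109.7) in T2D libraries, 1.04 to 53.0 CPM (median 13.9) in T2H and 1.32 to 22.9 CPM (median 4.09) in ICR adults, and its T2D range overlapped that of the ICR adults (log2 fold 4.35 ± 0.46).

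The largest fall, by the same limit, was that of *Kcnj12* (chr11:61022564-61073269), which encodes the inward rectifier potassium channel Kir2.2. It stood at 0 to 0.313 CPM (median 0.033) in T2D libraries, against 1.48 to 30.7 CPM (median 14.4) in ICR adults, and no library overlapped (log2 fold -7.86 ± 0.79, adjusted p = 9.13e-12, edgeR). *Npy* (chr6:49822710-49829507), the precursor of neuropeptide Y, had 0.647 to 12.2 CPM (median 2.94) in T2D libraries, against 103 to 921 CPM (median 418) in ICR adults. Here too the groups stood apart, and the fold was -6.23 ± 0.68 (adjusted p = 1.45e-10, edgeR). Other large falls were those of *Syt10*, a calcium sensor of vesicle fusion, which fell by 7.04 on the log2 scale, *Rph3a*, a Rab effector on vesicles, by 6.04 and *Sv2b*, a vesicle glycoprotein, by 4.50. The opioid precursor gene *Penk* stood at -4.89 ± 0.85, *Fibin* at -6.28 ± 0.56, the zinc transporter gene *Slc39a8* at -4.68 ± 0.58, the motor gene *Myo3a* at -4.55 ± 0.44 and *Acvr1c*, the receptor ALK7 of activins, at -4.51 ± 0.52. Of these 10 falls, *Sv2b* alone had ranges that overlap.

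Falls of abundant genes were led by *Fmo1*, a flavin monooxygenase, at 8.52 to 48.3 CPM (median 29.4) in T2D libraries, against 63.3 to 472 CPM (median 276) in ICR adults, and by *Gdf3*, a growth factor of the TGF-β family, at 5.09 to 32.3 CPM (median 14.2) in T2D libraries, against 76.05 to 329 CPM (median 167) in ICR adults. In both genes every T2D library lay below every ICR adult, and the folds were -3.32 ± 0.34 and -3.30 ± 0.38. The folds of *Car15*, a carbonic anhydrase (-3.02 ± 0.49), and *Matn2*, a matrix protein (-2.88 ± 0.38), came with ranges that overlap. *Tmem215* (-2.82 ± 0.21), *Maob*, which breaks down amines (-2.56 ± 0.26), and *Tmem229b* (-2.34 ± 0.22) had none. The level plots of 12 genes show both kinds.

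**Figure D2:**
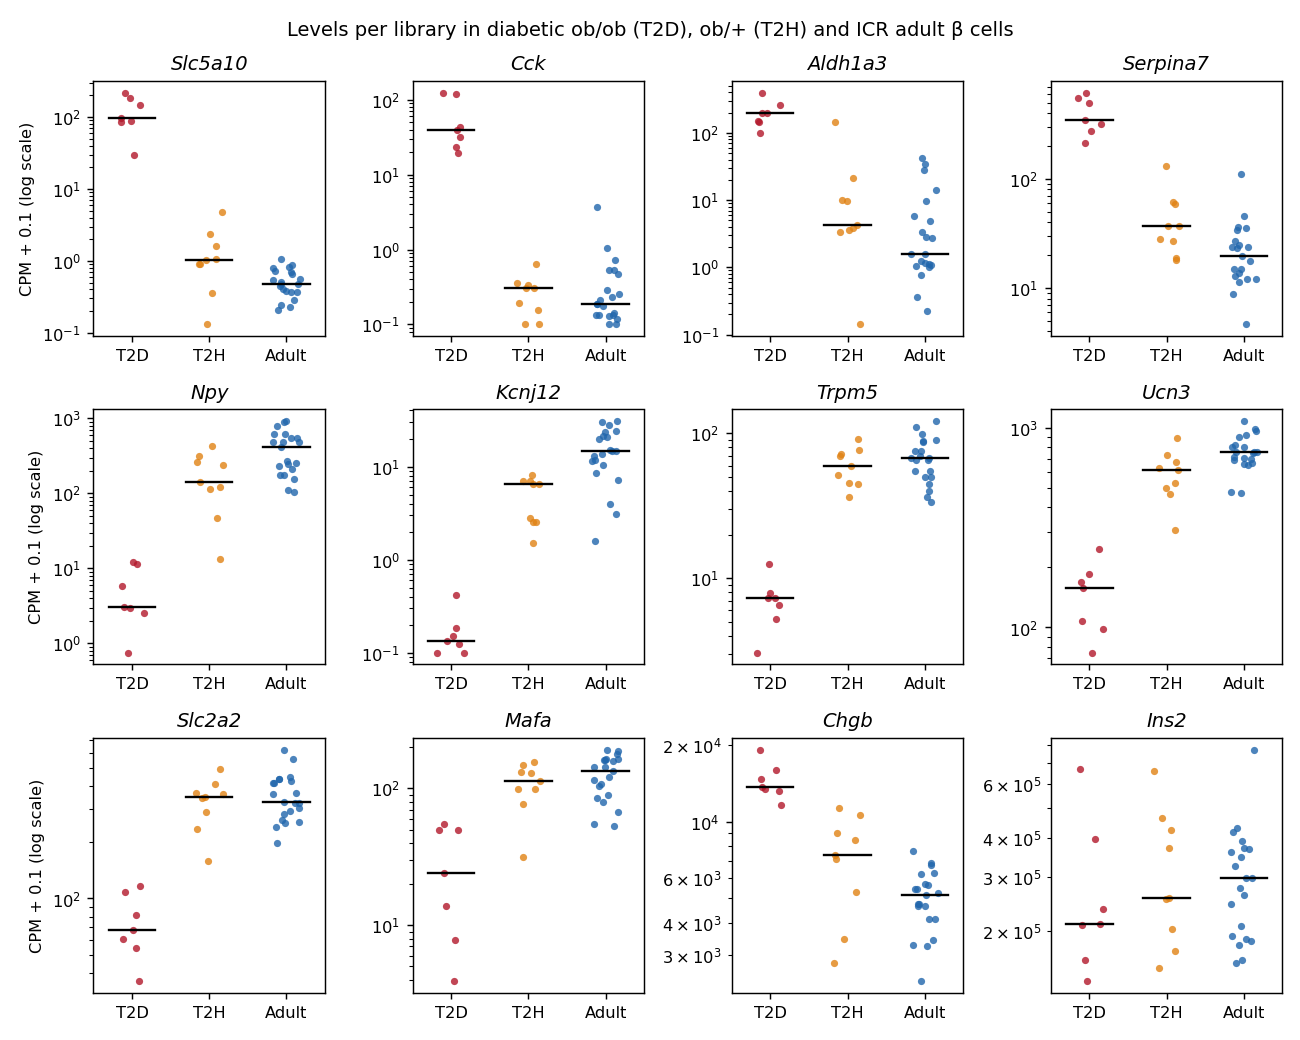
Level per library (y axis, CPM + 0.1, logarithmic) of 12 genes in T2D (n = 7), T2H (n = 9) and ICR adults (n = 21), with a bar at each median. *Slc5a10*, *Cck*, *Aldh1a3*, *Serpina7* and *Chgb* lie above and *Npy*, *Kcnj12*, *Trpm5*, *Ucn3* and *Slc2a2* below every ICR adult in all 7 T2D libraries, while *Mafa* and *Ins2* overlap.

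Transcription factors that hold β cell identity were mostly lower. Of 20 tested, 13 fell and 1 rose, beside 18.1% and 21.9% of all genes, with a median fold of -0.74. *Nkx6-1* (chr5:101659184-101664711), a homeobox factor needed for β cell function, had 45.1 to 76.1 CPM (median 57.9) in T2D libraries, against 103 to 372 CPM (median 184) in ICR adults. No library overlapped, and the fold was -1.66 ± 0.21 (adjusted p = 4.07e-09, edgeR). *Mafa*, an activator of the insulin genes, had 3.79 to 54.6 CPM (median 23.9) in T2D libraries, against 53.0 to 192 CPM (median 133) in ICR adults, with a fold of -2.34 ± 0.41 (adjusted p = 8.24e-06, edgeR); its T2D libraries ran from well below the ICR range to its lower edge. *Neurod1* stood at -0.79 ± 0.14 and *Pdx1*, mutated in a form of inherited diabetes, at -0.85 ± 0.18, both without overlap, and *Insm1* (-1.22 ± 0.24), *Mnx1* (-1.20 ± 0.25), *Isl1* (-0.79 ± 0.21) and *Pax6* (-0.70 ± 0.14) fell too. The member that rose was *Rfx6*, a factor of islet development, at 40.7 to 104 CPM (median 87.8) in T2D libraries, against 20.6 to 38.6 CPM (median 28.5) in ICR adults. Its ranges did not overlap, and the fold was 1.17 ± 0.18 (adjusted p = 3.92e-07, edgeR). The *Pdx1* call was lost with TRIzol libraries alone, with T2D 1 alone and in the test for at least 1.5-fold (adjusted p 1.42e-06 to 0.714 over all alternatives, edgeR).

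Markers of the mature β cell were lower in 11 of 16 cases and higher in 1, with a median fold of -1.35. *Ucn3*, a peptide hormone that appears as β cells mature, had 74.5 to 248 CPM (median 158) in T2D libraries, against 471 to 1077 CPM (median 754) in ICR adults, without overlap (log2 fold -2.30 ± 0.30, adjusted p = 7.98e-09, edgeR). The *Ucn3* call was lost with T2D 1 alone, while its fold was -2.57 to -1.44 over all alternatives. *Gpd2*, the mitochondrial arm of a shuttle that carries electrons from glycolysis (-1.21 ± 0.15), and *Cox6a2*, a subunit of cytochrome oxidase (-2.05 ± 0.66), fell as well. *Cltrn*, a membrane protein of islets, rose (1.18 ± 0.16). The list shares *Trpm5*, *Slc2a2*, *Glp1r*, *Mafa*, *Nkx6-1* and *Slc30a8* with other lists here, and its members are not counted as further evidence.

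Hormone and granule genes moved both ways, with 10 of 24 higher, 5 lower and a median fold of 0.20, beside 21.9% higher and 18.1% lower of all genes. The insulin genes were not called. *Ins1* had 38731 to 145610.0 CPM (median 49350.0) in T2D libraries, against 51078 to 242210.0 CPM (median 77345) in ICR adults (log2 fold -0.30 ± 0.24, adjusted p = 0.343, edgeR), and *Ins2* had 137520.0 to 671220.0 CPM (median 211070.0) in T2D libraries, against 157920.0 to 775160.0 CPM (median 296970.0) in ICR adults (log2 fold 0.24 ± 0.26, adjusted p = 0.49, edgeR). Their ranges overlap, and the sign of both folds changed between alternatives, for *Ins2* to -0.087 without the extraction term. *Iapp*, the amyloid peptide stored with insulin, rose, at 21364 to 56311 CPM (median 39815) in T2D libraries, against 13542 to 54426 CPM (median 21912) in ICR adults with overlap (log2 fold 0.91 ± 0.20, adjusted p = 0.000268, edgeR). *Chgb*, a granin that helps to build the granule, had 11576 to 19155 CPM (median 13714) in T2D libraries, against 2364 to 7694 CPM (median 5131) in ICR adults. All T2D libraries were above all ICR adults, with a fold of 1.58 ± 0.24 (adjusted p = 2.54e-07, edgeR). *Scg5* (1.15 ± 0.18), *Scg2* (1.08 ± 0.21), *Ica1* (1.01 ± 0.16) and the convertase *Pcsk2* (0.45 ± 0.19) rose as well.

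The 5 granule genes that fell had different roles. *Slc30a8*, the transporter that fills granules with zinc, had 109 to 247 CPM (median 204.5) in T2D libraries, against 413 to 853 CPM (median 508) in ICR adults (log2 fold -1.49 ± 0.22, adjusted p = 1.40e-07, edgeR). *Sytl4*, or granuphilin, which docks granules, had 50.2 to 136 CPM (median 75.8) in T2D libraries, against 165 to 591 CPM (median 299) in ICR adults (log2 fold -2.05 ± 0.26, adjusted p = 3.86e-09, edgeR), and *Vamp2*, a SNARE of the granule membrane, stood at -0.96 ± 0.14. None of these 3 had ranges that overlap. *Pcsk1n*, an inhibitor of a prohormone convertase (-0.81 ± 0.21), and the target membrane SNARE gene *Stx1a* (-0.48 ± 0.19) fell too. The *Iapp* call was lost with Qiagen libraries alone, with T2D 1 alone and for at least 1.5-fold (adjusted p 6.74e-06 to 0.221 over all alternatives, edgeR).

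Along the route from glucose to calcium, 12 of 24 genes fell and 1 rose, with a median fold of -0.59. *Slc2a2*, which encodes the glucose transporter GLUT2, had 36.02 to 117 CPM (median 67.9) in T2D libraries, against 199 to 623 CPM (median 328) in ICR adults. No T2D library reached the ICR range, and the fold was -2.21 ± 0.25 (adjusted p = 2.88e-10, edgeR). Pyruvate carboxylase (*Pcx*, -2.21 ± 0.28), which feeds pyruvate into the mitochondrial cycle, fell. *Kcnj11* (-1.64 ± 0.23) and *Abcc8* (-0.64 ± 0.20), the pore and the regulatory subunit of the ATP-sensitive potassium channel, fell also.

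*Trpm5* (chr7:143071529-143094642), a cation channel that calcium opens, had 2.95 to 12.5 CPM (median 7.22) in T2D libraries, against 33.5 to 122 CPM (median 67.9) in ICR adults. Every T2D library was below every ICR adult, and the fold was -3.18 ± 0.29 (adjusted p = 6.39e-13, edgeR). The receptor genes of the incretin hormones were lower: *Gipr* had 4.32 to 14.3 CPM (median 9.14) in T2D libraries, against 17.3 to 103 CPM (median 41.9) in ICR adults, without overlap (log2 fold -2.92 ± 0.36, adjusted p = 4.31e-09, edgeR), and *Glp1r* had 4.30 to 77.0 CPM (median 33.7) in T2D libraries, against 30.9 to 433 CPM (median 80.4) in ICR adults, with overlap (log2 fold -1.89 ± 0.52, adjusted p = 0.0029, edgeR). The *Glp1r* call was lost with Qiagen libraries alone, with the ICR adults of at most 124 days, with a term for myeloid markers and with T2D 1 alone (adjusted p 3.82e-05 to 0.207 over all alternatives, edgeR). The free fatty acid receptor gene *Ffar1* (-1.02 ± 0.29), the muscarinic receptor gene *Chrm3* (-0.84 ± 0.32) and the calcium channel genes *Cacna1a* (-1.14 ± 0.26) and *Cacna1d* (-0.54 ± 0.22) fell. *Kcnk16*, a background potassium channel, was the member that rose (1.31 ± 0.44). With a term for myeloid markers 7 members were lower, and with T2D 1 alone 7.

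Genes of islet progenitors and of dedifferentiated β cells were higher in 9 of 18 cases and lower in 3, with a median fold of 0.82. Beside *Cck* and *Aldh1a3*, the gastrin gene *Gast*, a hormone of the fetal islet, had 1.94 to 13.4 CPM (median 4.74) in T2D libraries, against 0 to 1.13 CPM (median 0.133) in ICR adults (log2 fold 5.74 ± 0.65, adjusted p = 1.95e-10, edgeR). The imprinted gene *Dlk1*, a Notch-like protein of fetal cells, had 2.18 to 62.9 CPM (median 27.5) in T2D libraries, against 0.191 to 2.80 CPM (median 0.831) in ICR adults (log2 fold 4.79 ± 0.36, adjusted p = 2.20e-15, edgeR). The ranges of *Gast* stood apart and those of *Dlk1* overlapped, through 1 T2D library at 2.18 CPM. *Vim* (1.97 ± 0.55), *Mycl* (1.84 ± 0.74), *Pyy* (1.32 ± 0.40) and *Cd81* (1.00 ± 0.22) rose. The fetal regulators *Neurog3* (0.35 ± 0.62, adjusted p = 0.682, edgeR), *Sox9* (-0.26 ± 0.65), *Sox11* (-0.73 ± 1.19) and *Fev* (-0.85 ± 0.48) were not called, and *Npy*, *Nnat* (-0.89 ± 0.32) and *Nanog* (-1.58 ± 0.63) fell. *Vim* and *Cd81* are also expressed by myeloid cells, and with a term for myeloid markers 7 members were higher and 1 lower, with a median fold of 0.12.

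Disallowed genes, which β cells keep silent, were higher in 4 of 22 cases and lower in 0, close to the 21.9% of all genes. Those called were *Slc16a1*, a lactate and pyruvate carrier, at 1.57 ± 0.56, *Hk2*, a hexokinase of high glucose affinity, at 2.34 ± 0.89, *Itih5* at 1.73 ± 0.66 and *Pdgfra* at 2.13 ± 0.86, all with median levels of at most 1.80 CPM in T2D and overlapping ranges. With a term for myeloid markers 0 of them was called higher, with the ICR adults of at most 124 days 0, and with T2D 1 alone 0 (4 lower); none of the 4 *Slc16a1*, *Hk2*, *Itih5* and *Pdgfra* held its call in these 3 fits (adjusted p over all alternatives 0.00254 to 1, 0.0073 to 0.642, 0.0121 to 0.66 and 0.00425 to 0.954 in that order, edgeR). Without T2D 3 *Slc16a1*, *Hk2*, *Itih5* and *Pdgfra* all lost the call.

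Genes of dividing cells were lower. Of 30 tested, 19 fell and 2 rose, with a median fold of -1.30, and against T2H 24 fell and 0 rose, beside 8.50% lower of all genes, with a median of -1.84. *Top2a*, a topoisomerase of chromosome segregation, had 0.248 to 2.08 CPM (median 1.08) in T2D libraries, 2.61 to 28.1 CPM (median 9.61) in T2H and 1.296 to 21.7 CPM (median 5.05) in ICR adults (log2 fold over ICR adults -2.40 ± 0.45, adjusted p = 2.52e-05, edgeR). *Mki67*, the Ki-67 antigen of cycling cells, had 0.174 to 2.92 CPM (median 2.01) in T2D libraries, 2.99 to 19.4 CPM (median 9.66) in T2H and 0.169 to 15.8 CPM (median 4.83) in ICR adults (log2 fold -1.48 ± 0.47, adjusted p = 0.00927, edgeR). In both genes the T2D ranges overlapped those of the ICR adults. The mitotic genes *Birc5* (-1.93 ± 0.39), *Ccna2* (-1.61 ± 0.32) and *Ccnb2* (-2.44 ± 0.54) fell. With T2D 1 alone 9 members were lower, with TRIzol libraries alone 7, and the *Mki67* call was lost with Qiagen libraries alone, with TRIzol libraries alone, with T2D 1 alone and for at least 1.5-fold (adjusted p 0.00196 to 0.452 over all alternatives, edgeR). That of *Ccna2* was lost with TRIzol libraries alone and with T2D 1 alone (adjusted p 7.08e-07 to 0.216), and that of *Top2a* with T2D 1 alone (adjusted p 1.52e-08 to 0.0929 over all alternatives, edgeR).

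Of 13 cyclins and inhibitors of the G1 phase, 2 rose and 4 fell, beside 21.9% and 18.1% of all genes. *Cdkn1a*, the inhibitor p21, had 107 to 298 CPM (median 135) in T2D libraries, 45.8 to 165 CPM (median 63.1) in T2H and 28.04 to 69.8 CPM (median 44.97) in ICR adults, with T2D above every ICR adult (log2 fold 1.99 ± 0.20, adjusted p = 1.02e-11, edgeR). *Cdkn2c*, the inhibitor p18, went the other way, at 1.54 to 3.52 CPM (median 2.31) in T2D libraries, against 5.77 to 22.7 CPM (median 10.2) in ICR adults, also without overlap (log2 fold -2.04 ± 0.20, adjusted p = 4.03e-12, edgeR). *Ccnd2*, the cyclin of β cell growth, stood at -0.87 ± 0.19 and the inhibitor *Cdkn2b* at 0.62 ± 0.17, with overlap in both. The *Cdkn2b* call was lost with TRIzol libraries alone, with the ICR adults of at most 124 days and with a term for myeloid markers, and those of *Cdkn2b* and *Ccnd2* for at least 1.5-fold and with T2D 1 alone (adjusted p over all alternatives 0.00188 to 0.532 for *Cdkn2b* and 3.10e-06 to 0.896 for *Ccnd2*, edgeR).

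**Figure D3:**
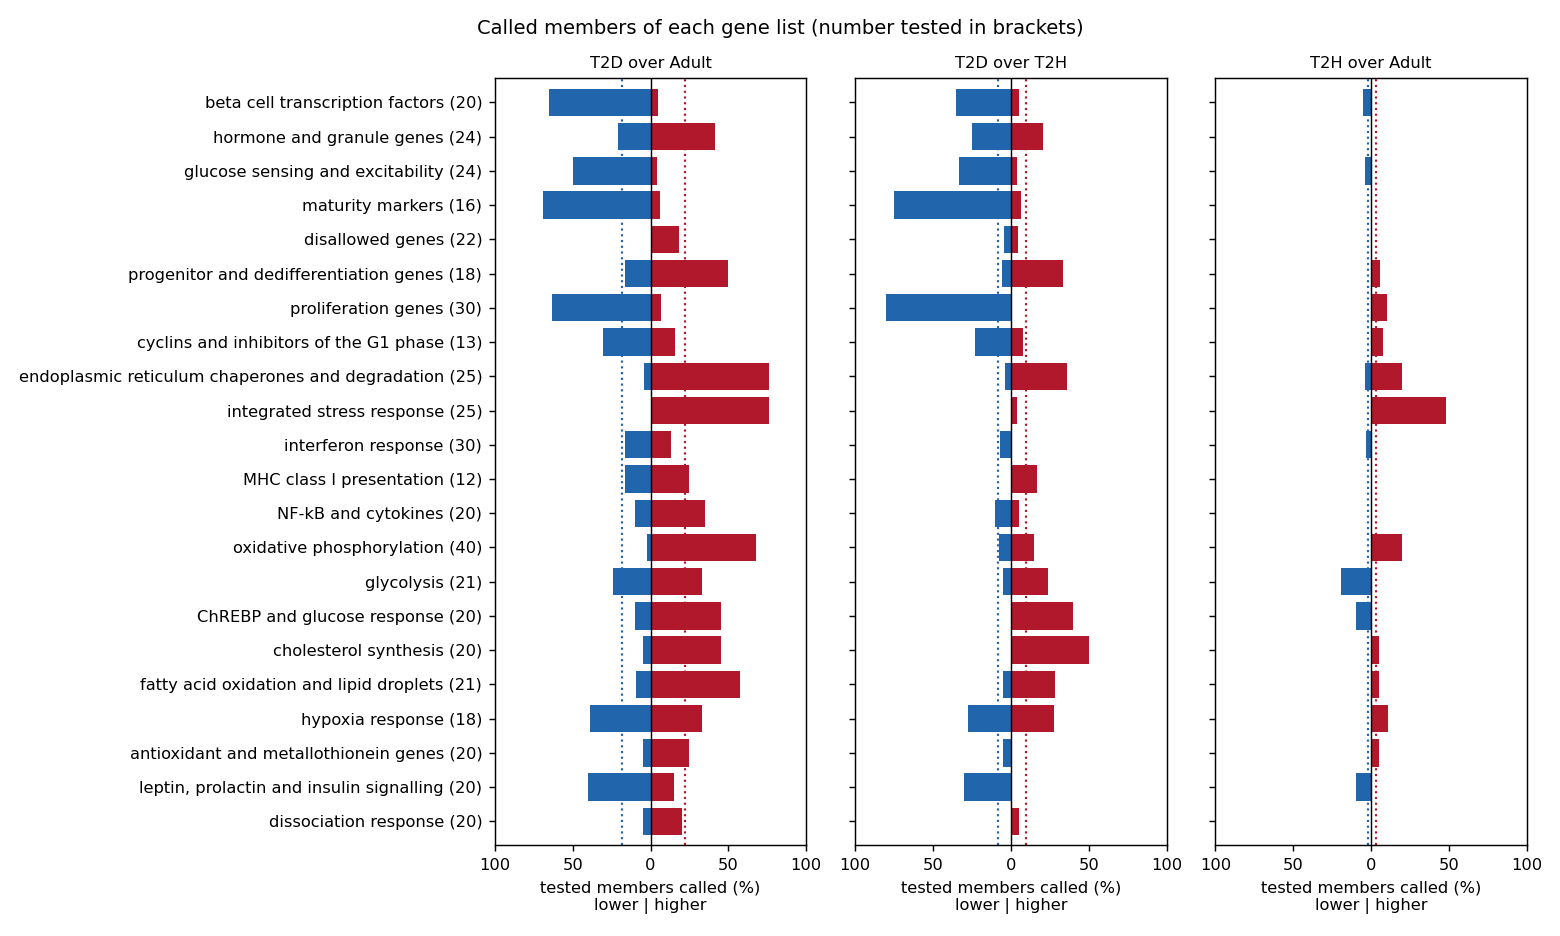
Percent of the tested members of each gene list (rows, number tested in brackets) that were called higher (red, to the right) or lower (blue, to the left) in T2D over Adult, T2D over T2H and T2H over Adult; dotted lines give the percent of all 16092 genes called in that direction. In T2D over Adult the bars for chaperones and for the integrated stress response (19 of 25 higher each) and, on the lower side, for maturity markers (11 of 16), β cell transcription factors (13 of 20) and proliferation genes (19 of 30) reach past the lines.

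Chaperones and degradation factors of the endoplasmic reticulum, where proinsulin folds, were higher in 19 of 25 cases and lower in 1, with a median fold of 0.81. *Derl1*, which helps to draw misfolded proteins out for degradation, had 282 to 398 CPM (median 322) in T2D libraries, against 108 to 205 CPM (median 153) in ICR adults (log2 fold 1.09 ± 0.10, adjusted p = 9.13e-13, edgeR). *Herpud1*, of the same degradation complex, had 500.2 to 1351 CPM (median 711) in T2D libraries, against 143 to 468 CPM (median 216) in ICR adults (log2 fold 1.86 ± 0.19, adjusted p = 1.72e-11, edgeR). Neither overlapped. *Hspa5*, the main chaperone BiP, stood at 1.04 ± 0.18, its co-chaperone gene *Dnajc3* at 1.51 ± 0.19, *Creld2* at 1.82 ± 0.29, the disulfide isomerase gene *Pdia6* at 1.27 ± 0.20, *Sel1l* at 1.07 ± 0.20 and *Hsp90b1* at 0.71 ± 0.13. *Ero1b*, the β cell oxidase that drives disulfide bonds, fell (-0.90 ± 0.17). Against T2H, 9 members were higher and 1 lower, beside 9.75% and 8.50% of all genes. With Qiagen libraries alone 9 members were higher.

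Many promoters of these genes carry the endoplasmic reticulum stress element (ERSE), the letters CCAAT and CCACG with 9 bases between them, to which the factors NF-Y and ATF6 bind. In RefSeq promoters of GRCm38.p6 (250 bases before to 50 after a start), searched on both strands, 10 of the 22 list genes with a promoter held it, against 0.137% of all 27025 genes; the shorter ERSE-II, ATTGG and CCACG with 1 base between them, lay in 2, against 0.0444%. A match describes the letters and is no evidence of binding here. The stretches of 5 genes that rose (*Hspa5*, *Pdia6*, *Dnajc3*, *Creld2*, *Herpud1*) and of *Ero1b*, which fell, follow because the ERSE stands before genes that went both ways. The *Herpud1* stretch holds ERSE-II, and each of the others holds the ERSE. Capitals mark the element, all bases lie before the start, and *Creld2* and *Ero1b* carry the reverse complement of the ERSE. The stretches lie at chr2:34772005-34772063 (+ strand), chr12:17266471-17266529 (+ strand), chr14:118937807-118937865 (+ strand), chr15:88819500-88819558 (+ strand), chr8:94386357-94386407 (+ strand) and chr13:12565662-12565720 (+ strand) in that order.
Hspa5: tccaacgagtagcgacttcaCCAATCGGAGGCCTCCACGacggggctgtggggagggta
Pdia6: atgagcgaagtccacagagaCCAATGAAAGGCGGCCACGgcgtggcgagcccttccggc
Dnajc3: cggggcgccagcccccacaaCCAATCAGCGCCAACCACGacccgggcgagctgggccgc
Creld2: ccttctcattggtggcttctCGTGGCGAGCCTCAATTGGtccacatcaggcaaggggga
Herpud1: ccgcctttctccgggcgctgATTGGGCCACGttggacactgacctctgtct
Ero1b: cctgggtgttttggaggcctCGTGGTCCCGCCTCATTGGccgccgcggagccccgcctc

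The integrated stress response, run by the factor ATF4, was higher in 19 of 25 genes and lower in 0, with a median fold of 1.10. *Asns*, asparagine synthetase, had 246 to 363 CPM (median 321) in T2D libraries, 155 to 338 CPM (median 204.3) in T2H and 65.1 to 177 CPM (median 109) in ICR adults, with T2D above every ICR adult (log2 fold 1.65 ± 0.18, adjusted p = 4.47e-11, edgeR). *Trib3*, a pseudokinase that brakes insulin signalling, had 22.02 to 70.9 CPM (median 33.6) in T2D libraries, 13.4 to 36.6 CPM (median 21.6) in T2H and 4.28 to 25.2 CPM (median 9.11) in ICR adults, with slight overlap (log2 fold 1.85 ± 0.24, adjusted p = 6.12e-09, edgeR). *Eif4ebp1*, a repressor of translation, stood at 2.34 ± 0.26, *Slc7a11*, the cystine carrier, at 3.41 ± 0.56, *Chac1*, which breaks down glutathione, at 1.98 ± 0.26, the serine enzymes *Psat1* at 1.70 ± 0.22 and *Phgdh* at 1.73 ± 0.27, and the death-linked factor *Ddit3* at 0.93 ± 0.15. The *Atf4* transcript itself was not called (0.25 ± 0.16, adjusted p = 0.208, edgeR).

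Part of this list was also higher in cells of the ob/+ mice. Between T2H and ICR adults 12 of 25 members were higher and 0 lower, beside 3.37% and 1.83% of all genes, with a median fold of 0.88; among them were *Asns* (1.18 ± 0.19), *Psat1* (1.32 ± 0.24), *Eif4ebp1* (1.46 ± 0.30) and *Trib3* (1.28 ± 0.27). Between T2D and T2H 1 member was called higher and 0 lower, beside 9.75% and 8.50% of all genes, with a median of 0.29. *Asns* differed there by 0.48 ± 0.21 (adjusted p = 0.108, edgeR) and *Trib3* by 0.57 ± 0.30 (adjusted p = 0.175, edgeR), which does not show that they are alike. Both comparisons with ICR adults share those 21 libraries.

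The ATF4 element CARE, TGATGNAA, lay in the promoters of 7 of 22 list genes, against 4.51% of all 27025 genes, by the same search. It is shown for 3 members that rose, *Asns*, *Chac1* and *Slc7a11*, in capitals, at chr6:7693210-7693252 (- strand), chr2:119351029-119351076 (+ strand) and chr3:50443652-50443699 (- strand); the *Chac1* stretch holds the reverse complement, and *Slc7a11* has a second match, as the reverse complement, in lower case near the end of its line.
Asns: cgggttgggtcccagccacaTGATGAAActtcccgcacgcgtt
Chac1: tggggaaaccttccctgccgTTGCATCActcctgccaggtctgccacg
Slc7a11: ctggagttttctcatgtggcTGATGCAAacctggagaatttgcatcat

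**Figure D4:**
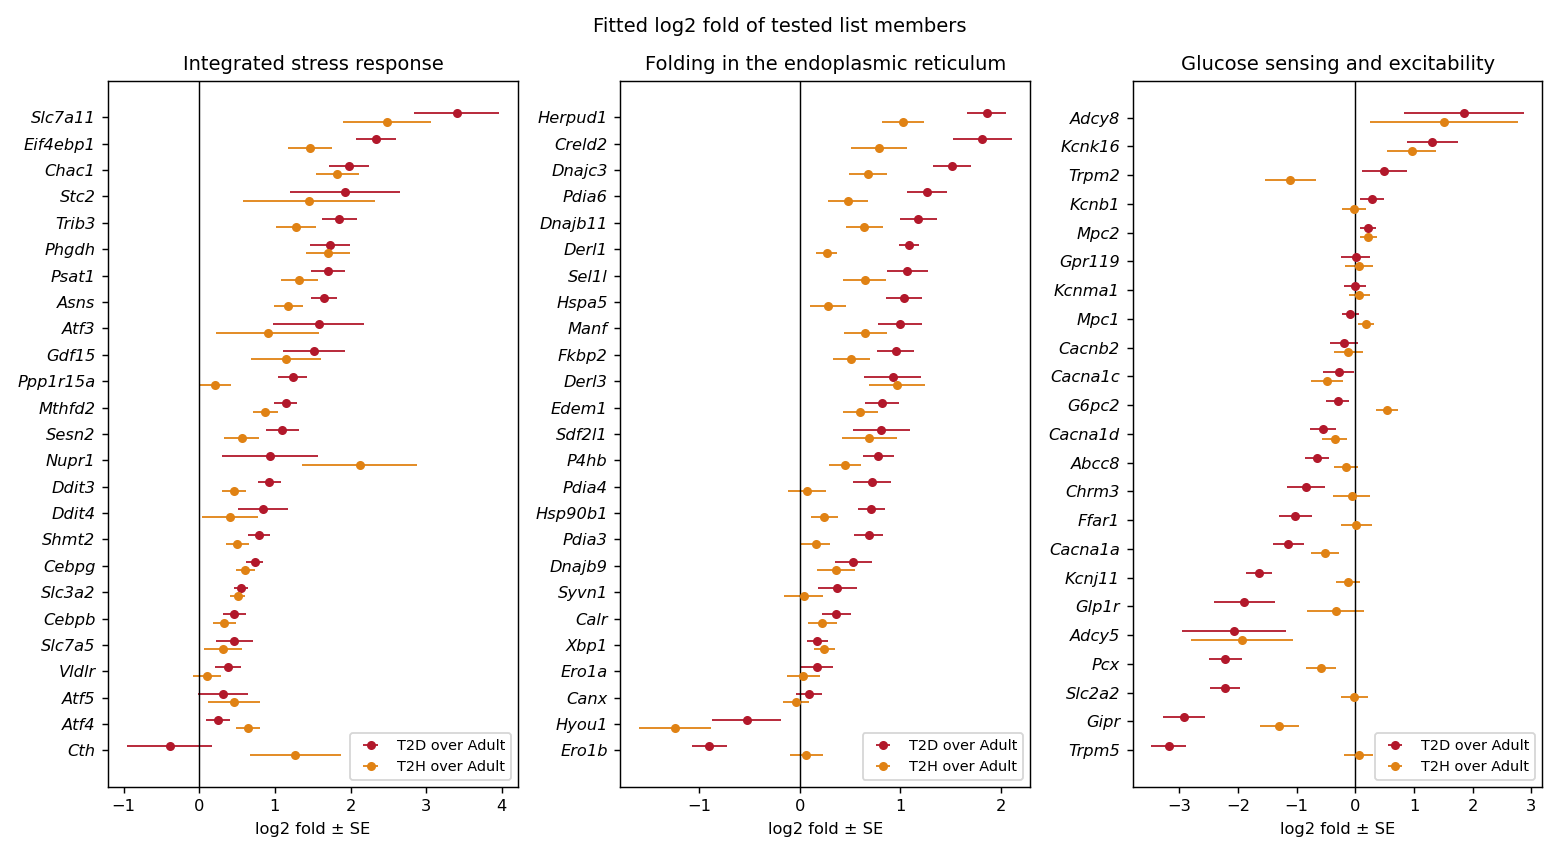
Fitted log2 fold ± SE (x axis) of tested members of 3 lists, for T2D over Adult (red) and T2H over Adult (orange), both against the same 21 ICR adult libraries. In the integrated stress response the T2H values stand to the right of 0 in most rows (median 0.88), while in glucose sensing their median is -0.092 and that of T2D -0.59.

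Genes that answer to glucose through the factor ChREBP were higher in 9 of 20 cases and lower in 2, with a median fold of 0.56. Against T2H 8 were higher and 0 lower, beside 9.75% and 8.50% of all genes. *Txnip*, an inhibitor of thioredoxin that high glucose induces, had 261 to 628 CPM (median 527) in T2D libraries, 115 to 415 CPM (median 139.7) in T2H and 50.5 to 250.1 CPM (median 102) in ICR adults. T2D stood above every ICR adult, and the fold was 2.02 ± 0.27 (adjusted p = 2.02e-08, edgeR). *Arrdc4*, its paralog, had 64.9 to 117 CPM (median 94.1) in T2D libraries, against 5.38 to 16.4 CPM (median 9.55) in ICR adults, without overlap (log2 fold 3.11 ± 0.25, adjusted p = 6.07e-15, edgeR). *Klf10* (1.95 ± 0.17) and *Rgs16* (1.88 ± 0.24) rose without overlap, and *Pklr*, a pyruvate kinase, rose with overlap (1.68 ± 0.24). The lipogenic targets *Acly* (-0.33 ± 0.29) and *Fasn* (-0.34 ± 0.17) were not called, nor was *Mlxipl*, which encodes ChREBP (-0.29 ± 0.32, adjusted p = 0.486, edgeR). The *Txnip* call was lost with TRIzol libraries alone and with T2D 1 alone (adjusted p 1.07e-10 to 0.245 over all alternatives, edgeR).

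A paired E-box, the carbohydrate response element of CACGNG and CACGNG with 5 bases between them, was found in the promoter of 1 of 14 list genes, against 0.0555% of all 27025 genes. That gene was *Txnip*; the stretch at chr3:96557852-96557908 (+ strand) is shown with the element in capitals.
Txnip: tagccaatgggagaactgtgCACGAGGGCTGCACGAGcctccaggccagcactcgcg

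Glycolysis genes moved both ways (7 of 21 higher, 5 lower), beside 21.9% higher and 18.1% lower of all genes. *Eno1*, an enolase, had 309 to 666 CPM (median 380.4) in T2D libraries, against 112 to 221 CPM (median 147) in ICR adults, without overlap (log2 fold 1.48 ± 0.14, adjusted p = 3.91e-13, edgeR), and *Gpi1* stood at 1.01 ± 0.099. Of the regulators of fructose 2,6-bisphosphate, *Pfkfb3* rose while *Pfkfb2* fell to 16.9 to 30.4 CPM (median 26.8) in T2D libraries, against 61.4 to 142 CPM (median 94.4) in ICR adults (log2 fold -1.97 ± 0.17, adjusted p = 1.30e-13, edgeR), without overlap. Hypoxia genes were split too (6 of 18 higher, 7 lower): *P4ha2*, a collagen hydroxylase (1.38 ± 0.19), and *Pdk1*, a kinase that inhibits pyruvate dehydrogenase (1.38 ± 0.21), rose, and the glucose transporter gene *Slc2a1* (-1.76 ± 0.22) and *Ankrd37* (-1.39 ± 0.21) fell.

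Subunits of oxidative phosphorylation were higher in 27 of 40 cases and lower in 1, mostly by small folds (median 0.48). *Ndufa1* of complex I stood at 1.48 ± 0.22, *Ndufb5* at 0.95 ± 0.15, *Cyc1* of complex III at 0.64 ± 0.096 and *Atp5pb* of ATP synthase at 0.65 ± 0.10, all with overlap, and *Cox6a2*, a maturity marker above, was the one that fell. Between T2H and ICR adults 8 members were higher and 0 lower, beside 3.37% and 1.83% of all genes. With Qiagen libraries alone 10 members were higher and for at least 1.5-fold 4.

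Genes of fatty acid oxidation and lipid droplets were higher in 12 of 21 cases and lower in 2, with a median fold of 0.65. *Plin2*, which coats lipid droplets, had 23.5 to 58.0 CPM (median 36.8) in T2D libraries, against 5.75 to 19.4 CPM (median 11.5) in ICR adults, without overlap (log2 fold 1.83 ± 0.24, adjusted p = 1.08e-08, edgeR). *Slc25a20*, the carnitine carrier of mitochondria (0.91 ± 0.12), and *Acadvl*, which opens the oxidation of long chains (0.65 ± 0.11), had none either. The fatty acid receptor gene *Cd36* (3.71 ± 0.70), *Pdk4* (3.003 ± 0.59) and *Angptl4* (4.13 ± 0.67) rose with overlap. Myeloid cells express *Cd36* and *Plin2* too; with a term for myeloid markers 12 members of the list were higher. The *Angptl4* call was lost with TRIzol libraries alone and with T2D 1 alone, where it was at 0 CPM (adjusted p 1.67e-07 to 0.185 over all alternatives, edgeR).

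In cholesterol synthesis 9 of 20 genes rose and 1 fell, and against T2H 10 rose and 0 fell, beside 9.75% and 8.50% of all genes there. *Fdft1*, squalene synthase, had 121 to 227 CPM (median 161) in T2D libraries, 18.9 to 68.8 CPM (median 57.5) in T2H and 33.0 to 70.5 CPM (median 51.4) in ICR adults. T2D stood above every ICR adult, and the fold was 1.72 ± 0.15 (adjusted p = 6.78e-14, edgeR). *Sc5d* (1.11 ± 0.15), *Fdps* (0.96 ± 0.15) and *Msmo1* (0.72 ± 0.14) rose with overlap, and the *Msmo1* call was lost with Qiagen libraries alone (adjusted p 6.31e-07 to 0.237 over all alternatives, edgeR).

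Among genes of leptin, prolactin and insulin signalling, 8 of 20 fell and 3 rose, with a median fold of -0.52. The leptin receptor gene *Lepr* was low and not called, at 0.015 to 1.84 CPM (median 0.718) in T2D libraries, against 0.227 to 3.97 CPM (median 0.834) in ICR adults (log2 fold -0.36 ± 0.51, adjusted p = 0.601, edgeR). *Cish*, a feedback inhibitor that STAT5 induces, had 23.5 to 63.9 CPM (median 38.2) in T2D libraries, against 35.7 to 352 CPM (median 125) in ICR adults (log2 fold -1.78 ± 0.27, adjusted p = 3.81e-07, edgeR). The factor genes *Stat5b* (-1.30 ± 0.20), *Stat5a* (-0.99 ± 0.19) and *Stat3* (-0.64 ± 0.17) fell, as did the receptor genes *Igf1r* (-1.38 ± 0.24) and *Prlr* (-0.48 ± 0.18), while *Irs2* (0.76 ± 0.24) and *Grb10* (1.11 ± 0.31) rose. Antioxidant genes were higher in 5 of 20 cases, near the level of all genes, among them *Prdx1* (0.64 ± 0.12), and lower in 1, the quinone reductase *Nqo1* (-2.01 ± 0.30).

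Immune lists were mixed, and the myeloid markers given above were higher in the same libraries; their part was not tested beyond the fits that follow. Of 12 genes of antigen display on MHC class I, 3 rose and 2 fell, near the 21.9% and 18.1% of all genes. *H2-D1* had 902 to 1743 CPM (median 1364) in T2D libraries, against 145 to 855 CPM (median 442) in ICR adults (log2 fold 1.70 ± 0.26, adjusted p = 4.41e-07, edgeR) and *H2-K1* 301 to 596.3 CPM (median 411) in T2D libraries, against 131 to 252 CPM (median 174) in ICR adults (log2 fold 1.28 ± 0.22, adjusted p = 2.89e-06, edgeR), both without overlap. Both genes are close in sequence to each other and differ between mouse strains, so their counts are uncertain. Interferon genes were higher in 4 of 30 cases, with *Usp18* at 0.85 ± 0.18, and lower in 5, with *Oasl2* at -1.73 ± 0.44 and *Irf9* at -0.79 ± 0.22. Of 20 NF-kB and cytokine genes 7 were higher, among them *Lcn2* (2.93 ± 0.70) and *Il1r1* (0.55 ± 0.15), and 2 lower, the factor subunits *Nfkb1* (-1.06 ± 0.17) and *Relb* (-0.99 ± 0.27). With a term for myeloid markers the counts were 3 higher and 2 lower for MHC class I, 1 and 11 for interferon, and 3 and 3 for NF-kB. The calls of *Usp18*, *Oasl2*, *Irf9*, *Il1r1* and *Relb* were lost with Qiagen libraries alone, and those of *Irf9*, *Il1r1*, *Relb* and *Lcn2* with TRIzol libraries alone.

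Genes that respond to the digestion of tissue, a sign of handling, were higher in 4 of 20 cases, near the 21.9% of all genes. Only 1 was lower, beside 18.1% of all genes, and the median fold was 0.49. These genes held 0.142 to 0.283% of counts (median 0.238%) in T2D libraries, against 0.0732 to 0.221% (median 0.139%) in ICR adults. *Hspa8*, a heat shock chaperone, rose without overlap (0.96 ± 0.15). The early genes *Fos* (1.16 ± 0.41) and *Dusp1* (1.14 ± 0.34) rose with overlap. Both calls were lost with the ICR adults of at most 124 days, with TRIzol libraries alone and with a term for myeloid markers. They were lost also by voom, for at least 1.5-fold and with T2D 1 alone. The highest adjusted p of *Fos* was 0.876 (limma voom). Its call was also lost without T2D 2, without T2D 4 and without T2D 7.

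Set against the ob/+ mice, which share the BTBR background in part, 2937 genes were called (18.3%), 1569 higher (9.75%) and 1368 lower (8.50%) in T2D, and 1406 of them at least 2-fold (8.74%). Between T2H and ICR adults 836 were called (5.20%), 294 of them lower in T2H (1.83%) and 324 at least 2-fold (2.01%), and without T2H 9 the count was 386. *Slc5a10* differed from T2H by 6.35 ± 0.78 (adjusted p = 2.35e-08, edgeR), *Cck* by 8.11 ± 1.05 (adjusted p = 7.30e-08, edgeR) and *Aldh1a3* by 3.74 ± 0.89 (adjusted p = 0.00187, edgeR). *Kcnj12* (-6.35 ± 0.78), *Npy* (-5.32 ± 0.69), *Trpm5* (-3.24 ± 0.31), *Slc2a2* (-2.20 ± 0.27), *Ucn3* (-2.03 ± 0.31) and *Nkx6-1* (-1.36 ± 0.22) were lower than in T2H. Of the glucose sensing genes 8 of 24 were lower and 1 higher in T2D over T2H, and 1 lower and 0 higher in T2H over ICR adults; the one lower in T2H was *Gipr* (-1.29 ± 0.33, adjusted p = 0.0141, edgeR). *Ins1*, not called against ICR adults, was lower in T2D than in T2H, with a fold of -1.02 ± 0.28 (adjusted p = 0.00566, edgeR), and *Ins2* was not called there (-0.36 ± 0.29, adjusted p = 0.418, edgeR). Maturity markers were lower in 12 of 16 cases in T2D over T2H (median -1.16) and in 0 in T2H over ICR adults (median 0.062). β cell transcription factors were lower in 7 of 20 cases in T2D over T2H and in 1 in T2H over ICR adults, where it was *Mnx1* (-0.81 ± 0.24). With TRIzol libraries alone (4 T2D, 8 T2H) 2609 genes were called in T2D over T2H, 1417 higher and 1192 lower, and 93 in T2H over ICR adults. With Qiagen libraries alone, where T2H holds 1 library, the counts were 25 and 17.

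T2D libraries were also compared for how far they differ among themselves. The mean distance between 2 libraries of a group (1 minus the Pearson correlation of log2 CPM over the 2000 tested genes of highest level) was 0.281 in T2D and 0.17 in ICR adults, a difference of 0.111 (exact permutation test over all 1184040 regroupings, two-sided, p = 0.229). T2D 1 lay farthest from the other T2D libraries, at 0.466 on average, and without it the difference was 0.037. Against the 6 ICR adults of at most 124 days, whose mean distance was 0.0444, the difference was 0.236 (exact permutation p = 0.0396). Those 6 libraries were all Qiagen, while 4 of the 7 T2D libraries were TRIzol, and extraction and group cannot be told apart in that value. With the extraction effect removed from all 28 libraries the difference was 0.0541 (exact permutation p = 0.438), and within Qiagen libraries (3 and 17) it was 0.0105 (exact permutation p = 0.878).

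Of the 120 called genes that the naming rule gave, 70 kept call and direction in every alternative and 115 in every fit with 1 library left out. Lost calls are given above for some of the other genes only. Among those not given, *Sorcs2*, *Gdf3*, *Car15*, *Matn2*, *Slc30a8*, *Rfx6*, *Cartpt* and *Plin2* lost the call with T2D 1 alone. The calls of *H2-K1*, *Rgs16*, *Ddit3*, *Pdk1*, *Stat5a*, *Ankrd37* and *Nfkb1* were lost there too. *Prdx1* lost the call with Qiagen libraries alone, and *Prdx1*, *Neurod1*, *Cyc1*, *Atp5pb* and *Acadvl* lost it for at least 1.5-fold. The folds of these genes kept their sign in every alternative. The library kit keeps no strand, so reads of genes that overlap on the genome cannot be told apart. Of the genes chosen by the rule for named genes, 13 overlap another gene of the table, among them *Slc5a10* (*Fam83g*), *Iapp* (*Slco1a5*), *Fdft1* (*Ctsb*, a protease gene that macrophages express strongly), *Pcx* (*Lrfn4*) and *Pfkfb2* (*Yod1*).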

How the data were processed

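RNA was extracted from sorted β cells with Qiagen columns or TRIzol, made into libraries with SMART-Seq v4 and Nextera XT, per the labels' protocols. The authors deposited expected counts per gene in 1 raw table of 20306 genes and 63 libraries; bcl2fastq 2.20.0.422, Bowtie 1.2.2, RSEM 1.3.0 and the build mm10 come from the submitters' processing notes. The counts were rounded to whole numbers. Genes were kept by filterByExpr, scaled by TMM and fitted with edgeR 4.0.16 (glmQLFit robust, glmQLFTest) over all 63 libraries, with a mean for each of 9 groups and a term for extraction; p was adjusted by Benjamini-Hochberg over 16092 genes. DESeq2 1.42.0 and limma 3.58.1 served as alternatives. The fit was tested on simulated data. The SE is the fold divided by the root of the F value. Marker shares are percentages of a library's counts.

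The named genes are the 10 largest rises and falls at 10 CPM and the 8 largest at 100 CPM in the higher group, called and with every T2D library on 1 side of the ICR adult median, up to 4 called members of each list by smallest p, and a set of anchor genes. Other list members named were chosen after their values were seen. The groups, lists and members were chosen with earlier results of these data known. The lists hold 598 genes, of which 595 were found in the table. Gene symbols were updated by matching symbol or synonym to RefSeq names, and 81 kept the deposited name. Promoter sequences come from RefSeq on GRCm38.p6, the patch release of the submitters' build. Some genes are not reported here. Replicate numbers follow accession order and pair no samples. Totals of 28402805 counts and more leave low genes, of a few counts in a library, as the least precise.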

Additional observations from a re-analysis of the deposited data

Results flagged for a closer look

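The 258 sets of values looked at were named genes in T2D and in T2H and marker shares in T2D alone. Of these sets, 22 held 1 library that stood apart from the rest of its group by the gap to its nearest neighbour. By chance about 1 in 20 groups is set apart. In T2D, library T2D 1 was high in *Acadvl* 212.1 CPM (group median 127) and *Eno1* 665.7 CPM (group median 380.4) and low in *Angptl4* 0 CPM (group median 3.25) and *Lepr* 0.01504 CPM (group median 0.718). T2D 7 was high in *Ddit3* 114 CPM (group median 54.1), the stress factor CHOP, and in *Txn1* 104.7 CPM (group median 51.4), thioredoxin. T2D 3 held an acinar share of 40.02% (group median 5.50%), and T2D 4 an erythroid share of 0.001971% (group median 0.0002722%).

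In T2H, library T2H 9 stood apart in 9 genes. It was high in *Csn3* 148.9 CPM (group median 2.95), *Dnajc3* 1183 CPM (group median 465.9), *Ndufa1* 358.8 CPM (group median 121), *Ndufb5* 97.96 CPM (group median 48.2) and *Sod2* 85.75 CPM (group median 58.6), and low in *Mafa* 31.31 CPM (group median 113), *Myo3a* 2.912 CPM (group median 14.5), *Nqo1* 1.941 CPM (group median 6.12) and *Slc39a8* 0.8898 CPM (group median 17.4). In all 9 genes this is the side of the T2H median on which the T2D median lies. This mouse was 179 days old with 271 mg/dl of glucose and 60.4 g of weight, each the highest of its group, and its RNA is the one of T2H that came from a Qiagen column; the parts of age, glucose, weight and extraction cannot be told apart in 1 library. T2H 3 was low in *Oasl2* 0.09256 CPM (group median 4.99) and *Pfkfb3* 0 CPM (group median 0.788), T2H 4 in *Aldh1a3* 0.0422 CPM (group median 4.13) and T2H 1 in *Lepr* 0.01564 CPM (group median 1.02), while T2H 5 was high in *Txnip* 415.4 CPM (group median 139.7). T2D 1 and T2H 1, both low in *Lepr*, held the most counts of the T2D, T2H and ICR adult libraries.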

How the results depend on the processing

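The sex term in the counts below was fitted with the compared groups alone, so its counts belong beside those of that smaller fit. Adding the sex term to it changed the count from 1293 to 1234 in T2D over T2H. In T2H over ICR adults the count changed from 672 to 157. Between T2D and ICR adults 6437 genes were called. The count was 3140 with Qiagen and 3398 with TRIzol libraries alone, 2222 for at least 1.5-fold (glmTreat), 3359 with T2D 1 alone (added after seeing the data, and assuming that this lone library varies like the other groups) and 5804 to 6535 with 1 library left out. T2D over T2H gave 2937, against 2609 with TRIzol libraries alone, 25 with Qiagen libraries alone (1 T2H library), 712 for at least 1.5-fold, 1293 with the compared groups alone, 1234 with a sex term and 2425 to 3336 with 1 library left out. T2H over ICR adults gave 836, against 1277 by DESeq2, 17 with Qiagen and 93 with TRIzol libraries alone, 176 with the ICR adults of at most 124 days, 1294 with mice of 1 Ins2-Cre copy, 39 for at least 1.5-fold and 157 with a sex term; it was 386 without T2H 9, 551 without Adult 13 and at most 1187 with 1 library left out. List members called were 255, against 154 with Qiagen libraries alone, 110 for at least 1.5-fold, 144 with T2D 1 alone and 231 to 258 with 1 library left out. Of 123 named genes tested 120 were called, 78 with T2D 1 alone and 116 to 120 with 1 library left out; 70 kept call and direction in every alternative. The difference in spread was 0.1109, 0.2364 with the ICR adults of at most 124 days, and 0.037 (without T2D 1) to 0.1539 with 1 T2D library left out.

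Signs turned as follows, and the cause was not tested. With T2D 1 alone *Hk2* stood at -4.00, *Lcn2* at -6.79, *Angptl4* at -6.28 and *Ins1* at 0.069; *Ins1* also stood at 0.025 with the ICR adults of at most 124 days and at 0.11 with a myeloid term. *Ins2* stood at -0.039 by voom, -0.087 without the extraction term, -0.093 with Qiagen libraries alone and -0.014 to 0.42 with 1 library left out. *Lepr* stood at 0.0031 with Qiagen libraries alone. No paired analysis was possible because the replicate numbers only follow accession order.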

Other observations

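Some markers of other islet cells were higher in the T2D libraries while glucagon and somatostatin were not called. *Gc*, the vitamin D binding protein known from alpha cells, had 369 to 1168 CPM (median 506.8) in T2D libraries, against 5.82 to 291.6 CPM (median 20.2) in ICR adults, and the thyroxine carrier gene *Ttr* had 347 to 939.6 CPM (median 722.8) in T2D libraries, against 18.0 to 959 CPM (median 87.0) in ICR adults. The T2D values of *Gc* lay above every ICR adult and those of *Ttr* overlapped, with folds of 4.59 ± 0.53 (adjusted p = 8.18e-10, edgeR) and 2.87 ± 0.44 (adjusted p = 5.85e-07, edgeR). The glucagon gene *Gcg* was not called, at 128 to 8290.1 CPM (median 2219.8) in T2D libraries, against 118 to 6976 CPM (median 1056) in ICR adults (fold 1.11 ± 0.53, adjusted p = 0.0897, edgeR). In the list of delta and PP cells *Etv1*, an ETS factor, had 53.6 to 82.5 CPM (median 64.7) in T2D libraries, against 3.95 to 48.6 CPM (median 10.96) in ICR adults, without overlap (fold 2.37 ± 0.36, adjusted p = 4.37e-07, edgeR), while somatostatin (*Sst*) was not called (-0.31 ± 0.51, adjusted p = 0.663, edgeR). The PP cell hormone gene *Ppy* was called higher (1.25 ± 0.51, adjusted p = 0.0439, edgeR), with 35.8 to 3407 CPM (median 95.3) in T2D libraries, against 84.5 to 816 CPM (median 237) in ICR adults, so that its T2D median was the lower one.

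Of 12 duct markers 4 were called higher and 1 lower in T2D, 3 of the higher ones keratins, beside 21.9% and 18.1% of all genes. *Krt18* rose by 1.40 ± 0.16 (adjusted p = 2.35e-10, edgeR), *Krt7* by 1.10 ± 0.16 (adjusted p = 1.43e-07, edgeR) and *Krt8* by 0.75 ± 0.15 (adjusted p = 3.32e-05, edgeR), with *Krt18* at 212 to 504 CPM (median 313) in T2D libraries, against 93.2 to 218 CPM (median 139.8) in ICR adults. The keratin *Krt19* was not called (0.33 ± 0.54, adjusted p = 0.665, edgeR), nor were the duct genes *Spp1* (0.85 ± 0.52) and *Sox9* (-0.26 ± 0.65). In the endothelial list 5 of 13 genes were lower and 1, *Esam* (0.99 ± 0.28), higher. The receptor genes *Kdr* (-3.41 ± 1.15) and *Flt1* (-3.28 ± 1.18) and *Plvap* (-2.64 ± 0.97) fell, with T2D medians below 0.5 CPM.

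The genes of the largest rise and the largest fall, *Slc5a10* and *Kcnj12*, both lie on chromosome 11, with 599512 bases between them. Of the 14 tested genes from one to the other, these 2 included, 3 were called higher and 2 lower, beside 21.9% and 18.1% of all genes. Apart from *Slc5a10* and *Kcnj12*, those called were *Aldh3a1* (2.60 ± 1.02), *B9d1* (0.47 ± 0.14) and *Fam83g*. *Fam83g*, which lies within the span of *Slc5a10*, went against it, with a median of 15.8 CPM in T2D, 31.5 CPM in T2H and 45.9 CPM in ICR adults and a fold of -1.45 ± 0.23 (adjusted p = 7.54e-07, edgeR). *Usp22* and *Aldh3a2*, expressed genes between them, were not called (folds 0.02 ± 0.21 and 0.17 ± 0.13). Strain differs between the groups over this stretch as elsewhere, and its part was not tested.

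A difference of the T2D effect between males and females was tested in the 28 libraries by an interaction term. By edgeR 0 of 13768 genes were called, with 1407 at an unadjusted p under 0.05 and a smallest adjusted p of 0.102. These 1407 are more than the share of 0.05 that would be met with no difference. The T2D group held 4 females and 3 males, so 0 calls do not show that the effect is alike in both sexes. DESeq2 was not run on this term.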
